A study of Drosophila melanogaster with 8 samples.

Results

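Of the 23932 features in the count table, 1933 carried a name beginning with lncRNA. The 22 of them with a mean raw count of at least 200 over the 8 samples are described here. They were selected on that mean, with earlier results of these data known. Of the 1911 others, 550 had no count in any sample and 123 were counted well enough to be tested. The mean that chose the members took in both groups, so the level of a member is no finding. RNA had been sequenced from dissected brains of 0 to 1 day old adults, equal numbers of males and females pooled, in 4 EmcOE and 4 Control samples. EmcOE flies overexpressed Extramacrochaetae (Emc) from *UAS-emc* under *elavC155-Gal4*, a driver that is active in neurons. Control flies came from the same driver crossed to *white\**. Both groups carried the driver and differed in the line crossed to it, so Emc overexpression and whatever else differed between these lines cannot be told apart.

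Long noncoding RNAs are transcripts without a recognised protein-coding frame, and some act as RNAs in the nucleus while for others transcription itself is the activity. In flies, *roX1* and *roX2* are built into the Male-Specific Lethal complex, which raises transcription of the male X chromosome, and *Hsromega* organises omega speckles, nuclear bodies that store hnRNP proteins and enlarge under heat stress. Emc is a helix-loop-helix protein without a DNA-binding region that pairs with the E-protein Daughterless and with proneural proteins and keeps them from DNA.

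The 22 lncRNAs lay on chromosomes X (8), 3R (6), 3L (3), 2L (2), 2R (2) and 4 (1). A CR number is the only name of 18 of them. The other 4 are *roX1*, *roX2*, *noe* and *Hsromega*. The later Ensembl annotation has all 22 gene IDs under the same names except *CR31451*, which it calls *mimi*. The exon model was a single block in 12, and the other 10 had 2 to 5 blocks. The libraries had been counted without strand, so exons shared on either strand matter for these RNAs. No exon base was shared with another feature in 11 members, under 10% of the exon length in 9 and more in 2. *CR42491* shared 50.5% of its exon length with *RpL22*, a ribosomal protein gene, and *CR45018* shared 35.8% with *IP3K2*, an inositol trisphosphate kinase gene, both on the same strand.

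EmcOE samples held 41619980, 21400830, 22171168 and 21529552 counts in replicates 1 to 4, and Control samples 20751513 to 22776791. The level of *emc* was 6038, 6289, 5874 and 6020.2 normalized counts in EmcOE brains, against 4951, 4786, 5165 and 4961 in Control brains (exact two-sided permutation p = 0.0286, the smallest that 4 against 4 samples can give). Normalized counts here are counts scaled by edgeR's TMM method to the mean library. Mitochondrial genes took 14.0% to 24.6% of the counts in EmcOE and 19.7% to 24.0% in Control samples, with EmcOE replicate 3 lowest. Photoreceptor markers, genes of the eye, were abundant although the label is brain, at a summed 747594 to 819457 normalized counts in EmcOE and 792882 to 932662 in Control, and 0 of 12 were called. Summed glial markers were at 83066 to 92192 in EmcOE and 96652 to 100486 in Control samples, without overlap. Only 1 of 8 of them was called, *Gs2*, the most abundant, downregulated with means of 40970 in EmcOE and 49432 in Control. Of the 8 log2 fold changes, 3 were above and 5 below 0, with a median of -0.039, so the sums mostly follow *Gs2*. Neuronal markers had 2 of 8 called upregulated (*fne* and *Syx1A*), with sums of 135645 to 150650 in EmcOE and 125622 to 139836 in Control. Of the fat body markers 4 of 10 were called upregulated (*Lsp1alpha*, *Lsp1beta*, *Fbp1* and *Fbp2*), with sums of 90277 to 161851 in EmcOE and 53176 to 201584 in Control, and of the 5 hemocyte markers tested 2 were called downregulated (*Hml* and *NimC1*), with sums of 5761 to 6627 in EmcOE and 6124 to 6745 in Control. The 8 muscle markers, at sums of 24248 to 37223 in EmcOE and 30300.4 to 43529 in Control, all had negative log2 fold changes and none was called. Of all these markers, *He* was too low to be tested. Among all tested features, 3.57% were called up and 5.12% down, by the test given in the next paragraph. The part of these cell types in the lncRNA results was not tested, and in bulk tissue fewer cells of a type and less RNA per cell cannot be told apart.

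Among the 22 lncRNAs, 5 were called changed by edgeR's quasi-likelihood test, that is, their adjusted p over all 9788 tested features was no more than 0.05 and their change was 0.2 or more on the log2 scale. *CR44922*, *CR34335* and *CR30055* were downregulated in EmcOE brains, and *CR31781* and *CR45223* were upregulated. All 22 members passed the minimum of 20 mean normalized counts for testing. The share called, 22.7%, stood beside 8.68% of all tested features (3.57% up, 5.12% down), 8.62% of the 7027 tested features with the same minimum raw mean and 9.76% of the 123 other tested lncRNAs, where 10 were called up and 2 down. The members were chosen with earlier results of these data known, and the difference between these shares was not tested. With total counts in place of TMM, 414 features were called up and 275 down, against 349 up and 501 down with TMM. The members' median log2 fold change was -0.064, with 8 above and 14 below 0, and that of all tested features was 0.013.

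**Figure D1:**
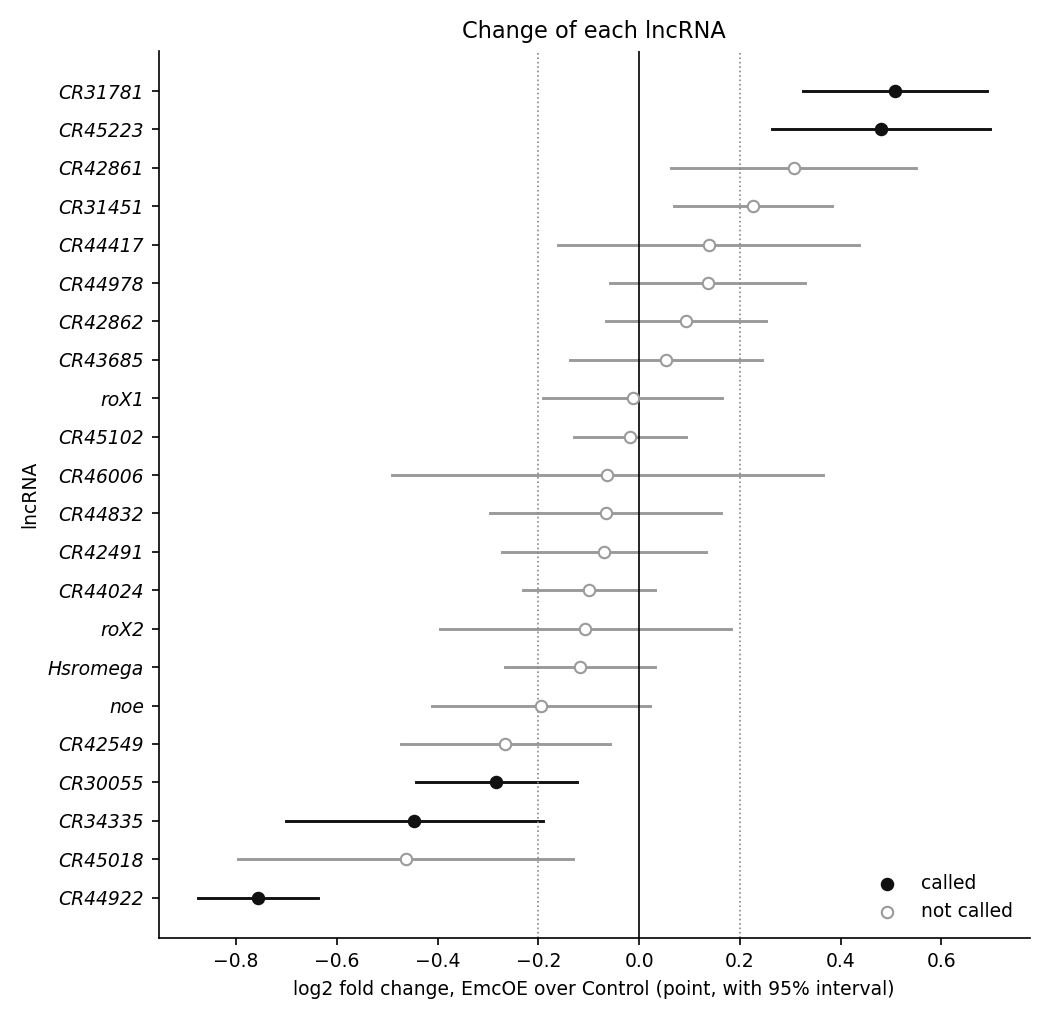
log2 fold change of each of the 22 lncRNAs, EmcOE over Control (horizontal axis), with its 95% interval as a line. Filled points are the 5 called members, open points the 17 others, and dotted lines mark 0.2 in each direction. *CR44922* lies farthest from 0 at -0.76, with the interval from -0.88 to -0.64.

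*CR44922* (FBgn0266227, 3R:4375084-4377600, plus strand, build BDGP6) is a single-exon RNA of 2517 bases, and it changed most. It had 2894, 3094, 3078 and 3214 normalized counts in EmcOE brains, against 5149, 4818, 5559.8 and 5209.9 in Control brains. Every EmcOE sample lay far below every Control sample, and the samples of a group were close together (coefficient of variation 4.30% in EmcOE and 5.86% in Control). The log2 fold change was -0.76 ± 0.0537 (SE, adjusted p = 1.35e-05), which placed it at rank 25 of the 9788 tested features by p-value.

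The features next to *CR44922* were examined after its values were seen. An annotated *roo* transposon insertion (FBti0019285) covers the 8325 bases 3R:4366813-4375137 on the opposite strand and shares 54 bases with the start of *CR44922*. Raw counts of this insertion were 118, 56, 55 and 60 in EmcOE and 1, 1, 2 and 7 in Control samples (adjusted p = 0.000156), so reads assigned to it came nearly all from EmcOE brains. Such a pattern was not limited to this place. Of 306 transposon insertions tested, 27 were called up and 20 down, beside 3.57% up and 5.12% down of all tested features. Of those called up, 11 averaged under 5 normalized counts in Control, this insertion included. Of those called down, 4 averaged under 5 in EmcOE. The nearest genes on either side, both on the plus strand, were also called downregulated. On the side of the insertion, the gap of 8228 bases between *CR44922* and *CG1090* is the insertion itself, which also reaches into the end of *CG1090*. *CG1090* had 4836, 5735, 5939 and 5952 normalized counts in EmcOE, against 6767, 6768, 7411 and 7377 in Control, a log2 fold change of -0.34 ± 0.0702 (SE, adjusted p = 0.0150). *Sfxn1-3*, a sideroflexin gene 999 bases beyond the other end of *CR44922*, had 2278, 2212, 2189 and 2233 in EmcOE, against 2799, 2629.9, 2373 and 2558 in Control. Its log2 fold change was -0.22 ± 0.0525 (SE, adjusted p = 0.0281). The groups of *CG1090* and *Sfxn1-3* did not overlap. Whether the EmcOE and Control flies carry the same insertion at this place was not tested.

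**Figure D2:**
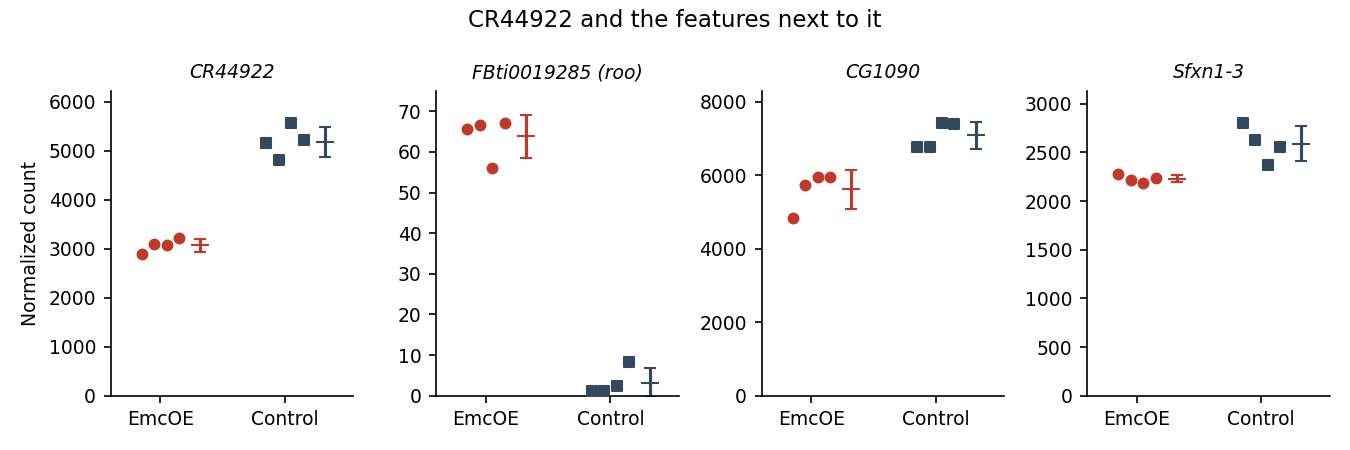
Normalized counts (vertical axes) of *CR44922*, the *roo* insertion FBti0019285, *CG1090* and *Sfxn1-3* in the 4 EmcOE and 4 Control samples, each point a sample, with mean and SD beside them. The groups are apart in all 4 panels, with EmcOE lower for *CR44922*, *CG1090* and *Sfxn1-3* and higher for the insertion.

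*CR34335* (FBgn0267910, X:3545750-3546110, minus strand) is a short RNA of 361 exon bases inside an intron of *DIP-alpha*, which encodes an immunoglobulin-domain protein of synaptic partner recognition. It had 1492, 1937, 1289 and 1339 normalized counts in EmcOE and 1921, 2257, 2124 and 1941 in Control brains. The groups touched, since EmcOE replicate 2 lay above Control replicate 1, while the 3 other EmcOE samples lay below all Control samples. A log2 fold change of -0.45 ± 0.115 (SE, adjusted p = 0.0367) passed the threshold, but the call held in 1 of the 8 fits that left out a sample, and adjusted p was as high as 0.110 without Control replicate 2. *DIP-alpha*, on the same strand, had a log2 fold change of 0.20 and was not called (adjusted p = 0.206).

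*CR30055* (FBgn0050055, 2R:12589239-12591395, plus strand) lies within an intron of *Sin3A*, the gene of a corepressor scaffold, on the opposite strand. It had 859, 781, 681 and 760.1 normalized counts in EmcOE, against 952, 919, 977 and 907 in Control brains. All EmcOE samples were lower than all Control samples, EmcOE replicate 3 being the lowest. Its log2 fold change was -0.28 ± 0.0725 (SE, adjusted p = 0.0352), and this call too held in 1 of the 8 fits with a sample left out, with adjusted p up to 0.0882 without Control replicate 1. With total counts in place of TMM it was not called (adjusted p = 0.135). *Sin3A* was at a log2 fold change of 0.17 and not called (adjusted p = 0.114).

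*CR31781* (FBgn0051781, 2L:16869346-16878300, plus strand), spliced from 4 exon blocks that no other feature shares, was upregulated. It had 593, 585, 625 and 606 normalized counts in EmcOE, against 390.4, 492, 391 and 419 in Control brains. The 4 EmcOE samples lay within a narrow band above the Control samples, among which replicate 2 was highest. The difference was a log2 fold change of 0.51 ± 0.0823 (SE, adjusted p = 0.00405), and the call held whichever sample was left out. Its nearest feature with counts at lower coordinates, *CG13284*, 20629 bases away on the opposite strand, was also called upregulated, with a log2 fold change of 0.70 (adjusted p = 0.000314).

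*CR45223* (FBgn0266750, 3R:17646903-17653478, minus strand) had 436, 366, 346 and 400.2 normalized counts in EmcOE, against 263, 276, 255 and 318 in Control brains. The groups did not overlap, although the lowest EmcOE and the highest Control sample were near each other. This gave a log2 fold change of 0.48 ± 0.0981 (SE, adjusted p = 0.0132), and the call was lost without Control replicate 2 (adjusted p = 0.0516). The opposite-strand gene *CG14322* shares 477 of its exon bases, which is 7.62% of its exon length, and had a log2 fold change of 0.05 (adjusted p = 0.696).

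**Figure D3:**
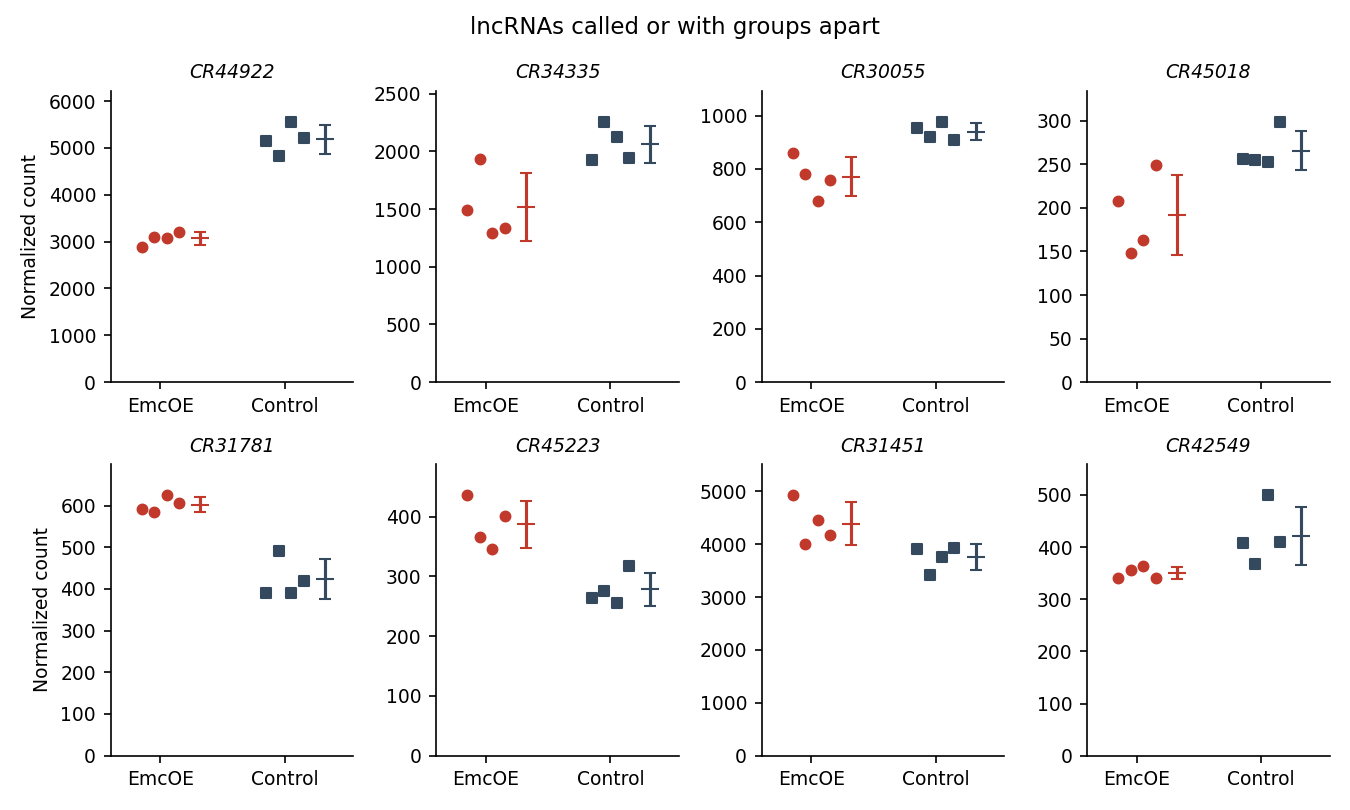
Normalized counts (vertical axes, from 0) of 8 lncRNAs in the 4 EmcOE and 4 Control samples, each point a sample, with mean and SD beside them. The 5 called RNAs are *CR44922*, *CR34335*, *CR30055*, *CR31781* and *CR45223*; the other 3 missed the threshold although their groups do not overlap.

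The groups did not overlap in 7 of the 22 lncRNAs, 3 with EmcOE higher and 4 with EmcOE lower, beside 16.4% of all tested features (8.51% with EmcOE higher and 7.86% with EmcOE lower). These were 4 of the called members and *CR31451*, *CR42549* and *CR45018*. *CR31451* (FBgn0051451), whose exon contains *mir-9381*, had 4924, 4002, 4452 and 4170.3 normalized counts in EmcOE and 3903, 3411, 3763 and 3935 in Control brains. All EmcOE samples were higher, but replicate 2 exceeded the highest Control sample by little, and a log2 fold change of 0.23 (95% interval 0.07 to 0.38) had an adjusted p of 0.0726. DESeq2 called it upregulated (adjusted p = 0.0424). The gene *CG31140*, which ends 270 bases before it on the same strand, had a log2 fold change of 0.24 and was called upregulated (adjusted p = 0.0405).

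*CR45018* (FBgn0266376) had 208, 149, 163 and 249 normalized counts in EmcOE, against 256, 255, 253 and 299 in Control brains. EmcOE replicate 4 came close to the Control samples, and the log2 fold change of -0.46 (95% interval -0.80 to -0.13) had an adjusted p of 0.0822. It was called downregulated by DESeq2 (adjusted p = 0.0332) and by edgeR without EmcOE replicate 4 (adjusted p = 0.0224). *IP3K2*, with which it shares 1433 exon bases, had 534, 503, 539 and 639 in EmcOE, against 682, 704, 633 and 861 in Control, a log2 fold change of -0.38, and was called downregulated (adjusted p = 0.0488). Both features were highest in replicate 4 of each group. The ratio of *IP3K2* to *CR45018* counts was 2.57, 3.38, 3.31 and 2.57 in EmcOE and 2.67, 2.76, 2.50 and 2.88 in Control samples, with overlapping groups (exact two-sided permutation p = 0.371). Reads lying in the shared bases fit both features. No option to count such reads for both was stated, and without it they would be counted for neither.

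*CR42549* (FBgn0260722) had 339.9, 356, 364 and 339.8 normalized counts in EmcOE and 408, 367, 499 and 409 in Control brains. The EmcOE samples were nearly alike and lay just below the lowest Control sample, and the log2 fold change of -0.27 (95% interval -0.47 to -0.06) was not called (adjusted p = 0.105). *mura*, a ubiquitin ligase gene sharing 97 exon bases on the same strand, was called in the other direction, with a log2 fold change of 0.27 (adjusted p = 0.0251).

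None of the 4 lncRNAs with established names was called. *roX1* (FBgn0019661) had 11162, 13202, 12528 and 11667 normalized counts in EmcOE and 10959, 11296, 13239.6 and 13469 in Control brains. *roX2* (FBgn0019660) had 606, 757, 520.1 and 556 in EmcOE and 538, 625, 728 and 734 in Control. Both were highest in replicate 2 among EmcOE samples and in replicates 3 and 4 among Control samples, with groups that overlapped fully. The log2 fold change was -0.01 for *roX1* (95% interval -0.19 to 0.17, adjusted p = 0.943) and -0.11 for *roX2* (95% interval -0.39 to 0.18, adjusted p = 0.653). Their normalized counts stood in a ratio of 20.2 ± 2.98 in EmcOE and 18.7 ± 1.10 in Control samples (SD, n = 4 each). As *roX* RNA is made in males, the yolk protein genes *Yp1* to *Yp3*, made in females, are given beside it. Their sum was 101198, 73171, 91470.3 and 134025 in EmcOE and 89664, 114525, 39916 and 172929 in Control samples. The paper pooled equal numbers of males and females per replicate, and these genes are also among the fat body markers. Their sums are therefore not read as a sex ratio, and its part in the *roX* values was not tested.

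Genes of the proteins that work with *roX* RNA were not called either. All 6 genes of the list (*msl-1*, *msl-2*, *msl-3*, *mof*, *mle* and *Clamp*) had log2 fold changes above 0, with a median of 0.15, and none was called. Their summed normalized counts were 6931.5 to 7434.7 in EmcOE and 6275.8 to 6561.3 in Control samples, without overlap. The most abundant in these sums were *mle* and *Clamp*. Of the 9788 tested features, 5185 had log2 fold changes above 0, and 8.51% had all EmcOE samples above all Control samples. The helicase gene *mle*, whose protein loads *roX* RNA onto the complex, was at 0.15 (adjusted p = 0.0863). The 8 members on the X chromosome had a median log2 fold change of -0.068, with 1 above and 7 below 0. Those below 0 ran from -0.46 for *CR45018*, which was not called, to -0.01 for *roX1*. The 14 members on other chromosomes had a median of -0.0044, with 7 above and 7 below 0. Of the 5 called members, only *CR34335* lies on X, and of all tested features 8.68% were called. A difference between X and the other chromosomes was not tested.

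*Hsromega* (FBgn0001234), counted here over a single exon block of 21710 bases, had 4234, 4425, 4356 and 5060.0 normalized counts in EmcOE, against 4769, 4511, 5244 and 5075 in Control brains. EmcOE replicates 1 to 3 lay below all Control samples, and replicate 4 lay among them. A log2 fold change of -0.12 was found (95% interval -0.27 to 0.03, adjusted p = 0.307). Of 8 genes for omega speckle proteins, all had log2 fold changes above 0 (median 0.12), as had 5185 of the 9788 tested features. Only *Hrb87F*, which encodes an hnRNP of the speckles, was called upregulated (log2 fold change 0.20, adjusted p = 0.0290), beside 3.57% of all tested features. Summed normalized counts of the 8 genes did not overlap either, at 34017 to 37436.9 in EmcOE and 32634.8 to 33437.5 in Control samples. The most abundant in these sums was *Hrb27C*. *TBPH*, the fly TDP-43 gene, had an adjusted p of 0.0406 but a log2 fold change of 0.16, below the minimum. *SIFaR*, the neuropeptide receptor gene 2128 bases before *Hsromega* on the opposite strand, was called upregulated at 0.46 (adjusted p = 0.00604).

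*noe* (FBgn0026197), a single-exon RNA of 1077 bases in an intron of *blot*, had 10362, 9849.6, 7591 and 7717 normalized counts in EmcOE and 9743, 10289, 10586 and 10046 in Control brains. EmcOE replicates 1 and 2 lay within the Control range and replicates 3 and 4 well below it. The coefficient of variation was 16.1% in EmcOE and 3.52% in Control, and the log2 fold change of -0.19 (95% interval -0.41 to 0.02) was not called (adjusted p = 0.243).

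**Figure D4:**
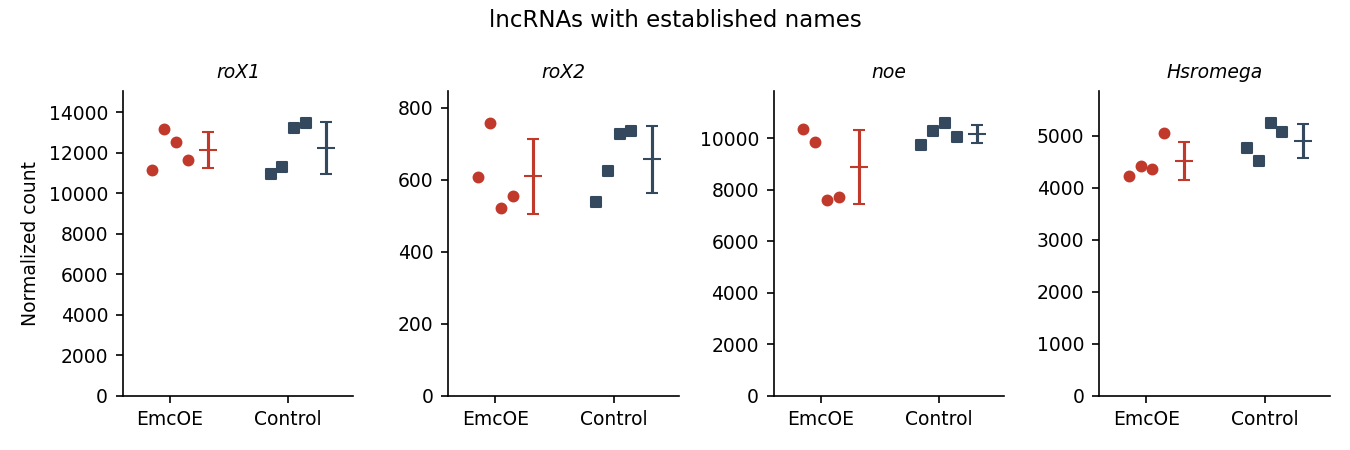
Normalized counts (vertical axes, from 0) of *roX1*, *roX2*, *noe* and *Hsromega* in the 4 EmcOE and 4 Control samples, each point a sample, with mean and SD beside them. The groups overlap in every panel, and for *noe* EmcOE replicates 3 and 4, at 7591 and 7717, lie below all other samples.

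Levels were compared between RNAs as mean normalized counts per kilobase of exon. *CR42862* was highest, at 14657 per kb in EmcOE and 13740.1 in Control, followed by *noe* (8245 and 9439), *CR34335* (4194 and 5709), *CR44832* (3191 and 3342) and *CR31451* (2807 and 2401). *roX1* stood at 2220.2 in EmcOE and 2239 in Control and *roX2* at 446 and 479.7. *Hsromega*, spread over the longest exon model of the 22, was at 208 and 226 per kb. The lowest was *CR46006*, with 25.8 in EmcOE and 26.8 in Control over 10235 exon bases.

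**Figure D5:**
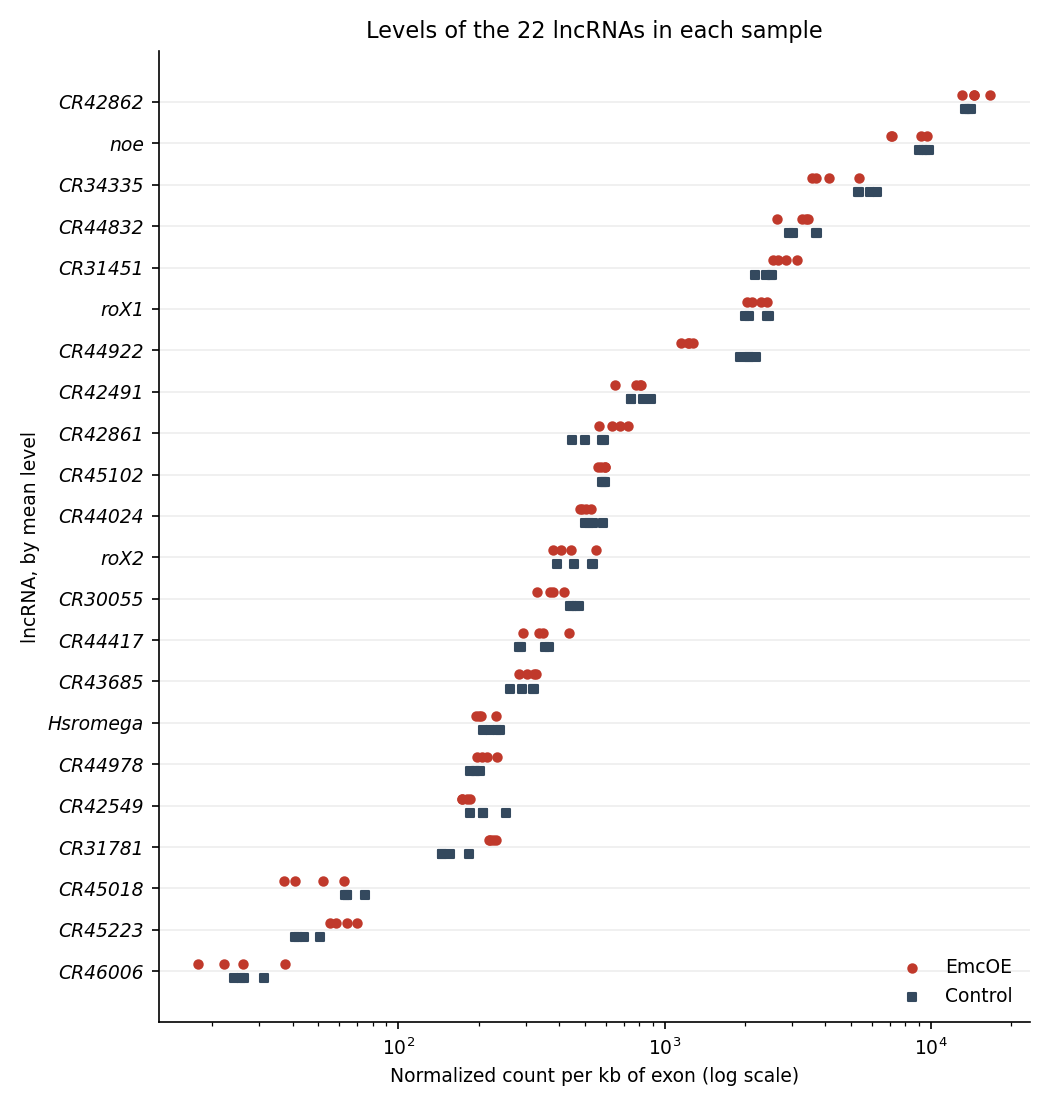
Normalized counts per kb of exon (horizontal log axis) of the 22 lncRNAs in each EmcOE sample (circles) and Control sample (squares), ordered by mean level. The means span from 26.3 for *CR46006* to 14199 for *CR42862*, and the groups are visibly apart for *CR44922*.

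*CR42862* (FBgn0262109, 3L:224106-230964, plus strand) made up 61.7% to 68.7% of all member counts in EmcOE and 60.3% to 62.1% in Control samples. Its normalized counts were 71479, 79203, 91460.1 and 79441 in EmcOE and 73484, 74452, 76296 and 77225 in Control brains. The Control samples were within a few percent of each other. EmcOE replicates 2, 3 and 4 lay above all of them, replicate 3 being the highest, and EmcOE replicate 1 lay below all of them. With a log2 fold change of 0.09 it was not called (95% interval -0.06 to 0.25, adjusted p = 0.450). The 22 lncRNAs together took 0.492% to 0.590% of the counts in EmcOE and 0.482% to 0.502% in Control samples, and 91.7% to 92.8% of all counts assigned to lncRNAs.

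*CR44832* had 1924, 1989, 1539.9 and 2015 normalized counts in EmcOE and 1706, 1770.0, 2163 and 2182 in Control brains, with overlapping groups and a log2 fold change of -0.07 (adjusted p = 0.737). *CR45102* was the steadiest, with 822, 854, 799 and 851 in EmcOE and 833, 854, 835 and 844 in Control, and its 95% interval of -0.13 to 0.09 lay within 0.2 of no change. Of the 17 members not called, this held for *CR45102* and *roX1*, and for the other 15 the interval reached a change of 0.2 or more. *CR46006*, which contains *mir-276a*, a microRNA needed for olfactory memory, varied most. It had 266, 383, 181 and 226 in EmcOE and 263, 319, 269.7 and 248 in Control, a coefficient of variation of 32.7% in EmcOE and 11.2% in Control, and the interval of its log2 fold change was -0.49 to 0.36. Its counting error at its mean raw count was 6.11%, well below the spread between EmcOE samples. The microRNA features within *CR46006* and *Hsromega* had no count in any sample, and *mir-9381* had 0 to 6. All lie in lncRNA exons on the same strand, so reads there fit both features. These counts therefore cannot show the level of the mature microRNAs.

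The remaining 6 members had overlapping groups and were not called. *CR42861* came nearest, with 401, 373, 349 and 312 normalized counts in EmcOE and 274, 246, 326 and 318 in Control, a log2 fold change of 0.31 (95% interval 0.06 to 0.55) and an adjusted p of 0.110. *CR44024*, *CR42491*, *CR43685*, *CR44417* and *CR44978* had log2 fold changes of -0.10, -0.07, 0.05, 0.14 and 0.14 and adjusted p from 0.325 to 0.741. For *CR42491*, the overlapping *RpL22* was at -0.14 and not called (adjusted p = 0.333). Over all 22 members the median coefficient of variation was 9.84% in EmcOE and 8.51% in Control, and it was larger in EmcOE for 14.

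The neighbourhood of the members was examined after their values were seen. Of 44 nearest features with a mean raw count of at least 20, taken on each side of a member, 5 were called up and 3 down. Of all tested features, 3.57% were called up and 5.12% down. Beside those named above, these were *alphaTub84B*, an alpha-tubulin gene (log2 fold change 0.34), and *e(y)2b* (-1.40) on either side of *CR43685*, and *CR46003* (1.01) next to *CR46006*. Counts of *e(y)2b* and *CR46003* were low. Mean normalized counts of *e(y)2b* were 13.0 in EmcOE and 34.5 in Control, and those of *CR46003* were 69.7 in EmcOE and 34.4 in Control. None of the 5 genes whose introns hold a member (*blot*, *DIP-alpha*, *Sin3A*, *Mapmodulin* and *Lar*) was called. Lists were also drawn up for RNAs that turned out not to be members. Of 8 genes for let-7 processing and targets, *br*, an ecdysone-response transcription factor, was called upregulated (log2 fold change 0.33, adjusted p = 0.0275) and none down, and of 8 genes for snoRNP proteins none was called.

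Next to the minimum, *CR44978* with a mean raw count of 201 and *CR45018* with 226 were just inside, and *CR44317* with 194 and *CR43126* with 192 just outside. The deeper EmcOE replicate 1 weighs more in a raw mean, and the mean normalized count of *CR44978* was 198. *CR44317* averaged 213 ± 17.3 normalized counts in EmcOE and 168 ± 6.07 in Control (SD, n = 4 each), with a log2 fold change of 0.34, and *CR43126* averaged 198 ± 26.0 in EmcOE and 189 ± 16.5 in Control, with a log2 fold change of 0.07.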

How the data were processed

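The authors trimmed the read pairs of poly(A)-selected libraries with BBDuk, mapped them with STAR 2.7.4a in 2 passes to build BDGP6 and counted pairs per gene with featureCounts 2.0.1, without strand, using pairs that mapped at both ends and were not chimeric. No option to count a pair for several overlapping genes was stated. The deposited values are these raw counts, with gene coordinates and exon lengths, from which exon sharing was computed. Groups and replicate numbers came from the labels. The members and gene lists were chosen with earlier results of these data known.

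edgeR 4.0.16 under R 4.3.3 was used. Features were tested where either group averaged 20 or more normalized counts, with TMM normalization over these features, and the quasi-likelihood test compared EmcOE with Control, with Benjamini-Hochberg adjustment over the 9788 features. All adjusted p-values are from this test unless another tool is named. Standard errors were derived from the fold change and the F statistic, and the 95% intervals from the t distribution on the model's 10.6 degrees of freedom. Counting error at a mean raw count of 201 was 7.05%. Single values were compared by exact two-sided permutation over 70 assignments. Chi-square statistics per degree of freedom between libraries of a group were 12.4 to 78.9, so none was a duplicate. The test was tried on simulated data. Alternatives were DESeq2 1.42.0, other normalizations, filters, fold and count minimums, the replicate block and leaving out each sample, with DESeq2 with the block and a minimum on normalized counts added after seeing the data.

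Named were called members, members without a CR number, the 5 highest per kb, those next to the minimum, main exon-sharing partners, called genes of the lists and *emc*. The other members are given to account for all 22, and other genes were chosen after their values were seen. A genome sequence was not used here, so no sequence is shown and a planned search for E-boxes was not run.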

Additional observations from a re-analysis of the deposited data

Results flagged for a closer look

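Among the groups of 4 samples of the 16 named lncRNAs, 32 were examined for a sample far from the others, a rule that chance alone meets in about 1 in 20 groups. In *CR45018*, Control replicate 4 had 299 normalized counts, while the 3 other Control samples had 253 to 256, and the gap was 0.939 of the group's whole range. It was also the Control sample with the most counts of the overlapping *IP3K2*.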

How the results depend on the processing

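*CR44922* and *CR31781* were called in the same direction in each of 16 alternative fits. *CR45223* was called in 15, *CR34335* in 8 and *CR30055* in 7. Leaving out each sample in turn gave 1 to 2 members called up and 1 to 2 called down, a median log2 fold change of the members from -0.10 to -0.014, and 204 to 465 features called up and 323 to 513 down over the whole table. In these fits log2 fold changes ran from -0.064 to 0.035 for *roX1*, from -0.13 to 0.015 for *CR44832*, from -0.027 to 0.12 for *CR43126*, from -0.23 (without EmcOE replicate 2) to -0.039 (without EmcOE replicate 3) for *roX2*, and from -0.28 (without EmcOE replicate 1) to -0.13 (without EmcOE replicate 3) for *noe*. Those of *CR42862* ran from 0.025 (without EmcOE replicate 3) to 0.15 (without EmcOE replicate 1), and those of *Hsromega* from -0.18 (without EmcOE replicate 4) to -0.087 (without EmcOE replicate 1), and none of these was called. With a minimum log2 fold change of 0.5, 1 member was called up and 1 down, and 139 features up and 243 down. With no filter on low counts, 380 features were called up and 596 down. With a mean raw count of at least 100 to be a member, 4 of 45 were called up and 4 down and the median was 0.054, and with at least 500, 1 of 14 was called up and 3 down. With total counts in place of TMM, the members' median was -0.00117, that of all features 0.081, *roX1* stood at 0.056, and *CR30055* was not called (adjusted p = 0.135). With edgeR's robust option *CR34335* was not called (adjusted p = 0.0600). DESeq2 without the block also called *CR31451* (adjusted p = 0.0424) and *CR45018* (adjusted p = 0.0332). *CR44317*, just below the count minimum, was called (adjusted p = 0.0402) but lost the call in 12 of the 16 alternative fits, 7 of them with a sample left out. The cause of these changes was not tested.

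With the replicate number as a block, 3 members were called up and 3 down (326 and 487 over all features). *CR31451* (adjusted p = 0.0405) and *CR45018* (adjusted p = 0.0433) were then called, and *CR30055* was not (adjusted p = 0.0578). Deviations of same-numbered samples correlated at -0.49, 0.15, 0.032 and -0.21 for replicates 1 to 4, and only replicate 2 correlated best with its own number, so the numbers were not taken to pair the samples. Of the 17 members not called, the intervals of 15 reached a change of 0.2, at low and high counts alike. Counting error, taken at the mean raw count of each member over the 8 samples, was 7.05% at most. Single samples with fewer counts had a larger one. The coefficient of variation between the samples of a group reached 32.7%. The samples of a group were biological replicates in the study, and 4 per group bound the precision of every interval.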
